A study of Mus musculus with 8 samples.

Results

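Chemokines and their receptors were described in the livers of control and Smo-KO mice on a steatohepatitis diet, the CDA-HFD. The family was taken as every gene symbol that begins with Ccl, Cxcl, Cx3cl, Xcl, Ccr, Cxcr, Cx3cr or Ackr followed by a digit, which gave 62 of the 25239 symbols counted, 40 ligands and 22 receptors. Of the receptors, 18 were typical signaling receptors and 4 were atypical receptors. RNA of Cxcl9 and Cxcl10, ligands of the lymphocyte receptor CXCR3, was at 34.4% and 44.7% of its control level in Smo-KO livers, and RNA of the receptor itself, Cxcr3, at 51.2%. The main monocyte ligand, Ccl2, was at 101% of its control level, and the neutrophil ligands Cxcl1 and Cxcl2 at 68.9% and 88.9%. The groups overlapped for all of these except Cxcr3. Groups also did not overlap for Cxcl3, a neutrophil ligand with too few reads to be tested. It had 5 to 8 reads per control liver and 1 to 4 per Smo-KO liver. Neither any member nor any other gene passed the threshold of 0.05 for adjusted p-values when tested by edgeR.

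Chemokines are small secreted proteins that bind to proteoglycans on vessel walls and in tissue and draw leukocytes along their gradients. Typical receptors are coupled to inhibitory G proteins and set the leukocyte's cytoskeleton in motion, whereas atypical receptors take up chemokines without that signal. CXCL9, CXCL10 and CXCL11 are induced by interferon gamma and call in activated T cells and NK cells through CXCR3. CCL2 and its relatives draw CCR2-bearing monocytes out of the blood, and CXCL1, CXCL2 and CXCL5 draw neutrophils through CXCR2. In injured liver these ligands come from hepatocytes, Kupffer cells, endothelium, stellate cells and recruited leukocytes.

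RNA was sequenced from whole liver of 4 control and 4 Smo-KO mice. All were adult male Smo flox/flox mice (Smo tm2Amc/J) on a C57Bl6/J background, and all were fed for 6 weeks the CDA-HFD, a choline-deficient, amino acid-defined high-fat diet that causes steatohepatitis. An adeno-associated virus of serotype 8 was given by tail vein 1 week before the livers were taken: control mice received AAV8-TBG-Luciferase and are labelled WT for genotype, although they carry the floxed alleles, and Smo-KO mice received AAV8-TBG-Cre Recombinase. The TBG promoter is active in hepatocytes, so endothelial, stellate and immune cells keep the intact gene in both groups. No group without the diet or without a vector entered the comparison. Because whole liver was sequenced, fewer cells of a type and less RNA per cell cannot be told apart.

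Reads assigned to genes numbered from 9177277 to 9999732 in control livers and from 8203299 to 9543675 in Smo-KO livers (exact permutation test over mice, two-sided p = 0.257). Levels are given as CPM, read counts scaled to the size of a liver's library with TMM factors, and 3 reads, taken as the smallest count that can be told from absence, were worth 0.297 to 0.366 CPM. A fold change is the log2 difference of Smo-KO from control livers in edgeR with its standard error (SE), and adjusted p-values cover all 12977 genes that had enough reads to be tested.

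Smo itself, the target of the deletion, was at 8.17, 8.49, 8.74 and 8.21 CPM in control livers and at 5.67, 3.93, 4.27 and 4.37 CPM in Smo-KO livers. All Smo-KO livers lay below all control livers, as their labels say, at 54.3% of the control mean (log2 fold change -0.88, SE 0.16, edgeR adjusted p = 0.0957, DESeq2 adjusted p = 0.00646). The source of the reads that remained was not tested. Hepatocyte markers were abundant in every liver: the sum over 8 of them was 30456 ± 2800 CPM in control and 29869 ± 791 CPM in Smo-KO livers (mean ± SD, n = 4 each), with the albumin gene Alb the most abundant.

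Of the 62 members, 34 had enough reads to be tested and 28 did not. No reads at all were counted for 8 members (Ccl19, Ccl21a, Ccl21b, Ccl21c, Ccl21d, Ccl26, Ccl27b and Cxcl15), which allows at most 0.366 CPM in any liver. The Ccl21 and Ccl27 genes have near-identical copies, among which reads can be lost or split. The other 20 untested members had at most 91 reads over the 8 livers together. No tested member reached the level needed for testing in 1 group alone.

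At an unadjusted p under 0.05, 11 of the 34 tested members were lower and 3 were higher in Smo-KO livers. Over all genes tested the same threshold was passed by 13.8%, 7.15% being lower and 6.7% higher. Values did not overlap between the groups for 6 of the 34 tested members, against 7.37% of all genes tested. Of these 6, 5 were lower and 1 was higher, against 4.34% and 3.03% of all genes. At an unadjusted p under 0.01 there were 6 members, against 4.25% of all genes. The median log2 fold change of the 34 was -0.16, that of all genes 0.00. Outside the CXCR3 ligands and receptor, 7 of 30 members were lower, 3 were higher and the median was -0.07. The lowest adjusted p of any member was 0.116, and DESeq2 put 1 member, Cxcl9, and 1.29% of all genes under 0.05 after adjustment.

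**Figure D1:**
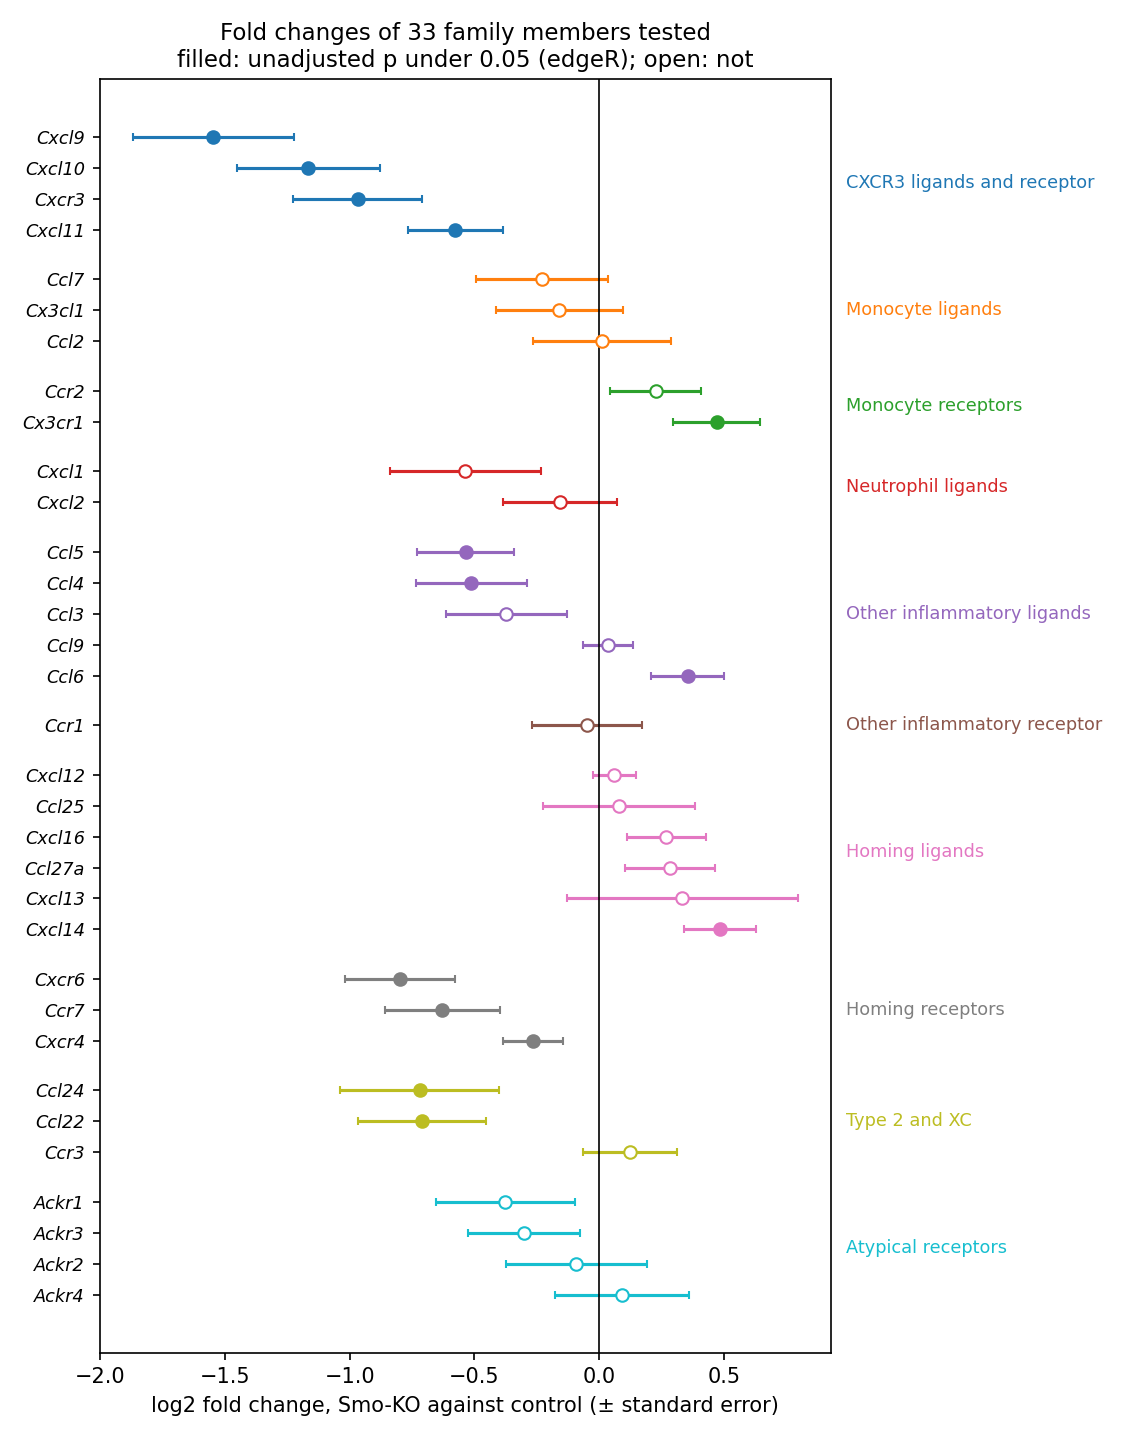
Log2 fold change of Smo-KO against control livers for 33 tested members (horizontal axis, bars ± SE), grouped by role; filled symbols mark an unadjusted p under 0.05 in edgeR. Cxcl9, at -1.55, Cxcl10 and Cxcr3 lie farthest left, while the monocyte ligands lie near 0.

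Cxcl9, Cxcl10 and Cxcl11 lie next to each other on chromosome 5 (GRCm38.p6, chr5:92321331-92328079, chr5:92346638-92348889 and chr5:92359544-92363296), and Cxcr3 lies on the X chromosome (chrX:101731535-101734147). The neutrophil ligands Cxcl5, Cxcl3, Cxcl15, Cxcl1 and Cxcl2 form a cluster of their own on chromosome 5 (chr5:90759298-90905938), and the monocyte ligands Ccl2, Ccl7, Ccl12 and Ccl8 lie together on chromosome 11 (chr11:82035577-82116799). Promoters are shown for the 2 CXCR3 ligands that differed most and, beside them, for 3 neutrophil ligands, Cxcl1, Cxcl2 and Cxcl3. These 3 are the neutrophil ligands with a match to the kappa B motif, so they do not stand for their whole cluster. Each promoter is the 250 bases before the transcription start in RefSeq (GRCm38.p6), in the direction of the gene. Capitals mark a match to the core of the interferon-stimulated response element (GAAA, 2 bases of any kind, GAAA) or to the kappa B motif (GGGA, 1 base of any kind, TTTCC), which interferon regulatory and NF-kB factors are known to bind.
Cxcl9 (chr5:92328080-92328329, minus strand): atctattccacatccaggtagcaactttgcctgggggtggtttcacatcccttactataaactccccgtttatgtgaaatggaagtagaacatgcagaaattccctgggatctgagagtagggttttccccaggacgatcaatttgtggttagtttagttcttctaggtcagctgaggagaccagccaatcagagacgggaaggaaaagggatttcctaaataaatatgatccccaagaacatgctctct
Cxcl10 (chr5:92348890-92349139, minus strand): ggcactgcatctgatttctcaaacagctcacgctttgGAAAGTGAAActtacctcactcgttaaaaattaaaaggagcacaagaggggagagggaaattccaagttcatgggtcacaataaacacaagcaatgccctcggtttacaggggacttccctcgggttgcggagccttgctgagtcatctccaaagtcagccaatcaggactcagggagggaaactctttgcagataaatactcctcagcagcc
Cxcl1 (chr5:90890995-90891244, plus strand): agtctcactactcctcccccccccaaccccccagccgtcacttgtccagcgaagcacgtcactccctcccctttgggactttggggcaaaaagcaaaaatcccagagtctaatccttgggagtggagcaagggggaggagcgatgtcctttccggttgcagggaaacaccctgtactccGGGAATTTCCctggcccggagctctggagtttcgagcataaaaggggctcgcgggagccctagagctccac
Cxcl2 (chr5:90903649-90903898, plus strand): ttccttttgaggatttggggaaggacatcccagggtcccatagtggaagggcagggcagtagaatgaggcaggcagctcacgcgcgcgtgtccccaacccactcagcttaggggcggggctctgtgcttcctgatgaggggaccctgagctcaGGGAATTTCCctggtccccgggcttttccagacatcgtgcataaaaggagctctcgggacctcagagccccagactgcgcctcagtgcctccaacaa
Cxcl3 (chr5:90785851-90786100, plus strand): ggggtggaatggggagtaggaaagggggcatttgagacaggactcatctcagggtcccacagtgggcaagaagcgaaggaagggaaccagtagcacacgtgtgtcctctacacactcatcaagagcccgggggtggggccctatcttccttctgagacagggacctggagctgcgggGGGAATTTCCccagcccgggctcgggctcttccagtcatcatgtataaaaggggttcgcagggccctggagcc

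The response-element match of Cxcl10 lies 213 to 204 bases before the start. The kappa B matches of the neutrophil ligands share the letters GGGAATTTCC and lie 71 to 62 bases before the start in Cxcl1, 97 to 88 in Cxcl2 and 73 to 64 in Cxcl3. The motifs were searched on both strands in 32851 RefSeq promoters (250 bases before to 50 after each start): 3.44% held the response-element core, 8.3% the gamma-activated sequence TTCNNNGAA, a motif of interferon gamma responses, and 0.411% the kappa B motif. RefSeq promoters were matched for 46 of the 62 members. The response-element core was in Ccl19, Cxcl10 and Cxcl14, the gamma-activated sequence in Ccl17, Ccr1l1, Ccr6 and Cxcl14, and the kappa B motif in Ccr3, Cxcl1, Cxcl2 and Cxcl3. Letters of the response element and the gamma-activated sequence can overlap. A match describes these letters only, and the absence of one says only that they are not in this window. This holds for Cxcl9, for the kappa B motif in Cxcl10 and for every other member. Sites that differ from the searched letters were not looked for, so the capitals do not divide the ligands by the factors that bind them.

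Cxcl9 was at 87.8, 123, 174 and 171 CPM in control livers and at 40.3, 32.4, 90.2 and 28.1 CPM in Smo-KO livers. The groups overlapped at 1 point, since Smo-KO mouse 3 lay slightly above control mouse 1, and the other 3 Smo-KO livers were below every control liver. The means were 139 ± 41.2 and 47.8 ± 28.8 CPM (SD, n = 4 each). The log2 fold change was -1.55 (SE 0.32, edgeR p = 0.000373, adjusted p = 0.116), the lowest p of the family, and the exact permutation test over mice gave a two-sided p of 0.0571, where 0.0286 is the smallest that 4 against 4 mice allow. DESeq2 gave an adjusted p of 0.0458. With 1 mouse left out in turn, edgeR's log2 fold change lay between -2.05 and -1.36 and its adjusted p between 0.0111 and 0.251, and only leaving out Smo-KO mouse 3 brought it under 0.05. DESeq2's call was held without Smo-KO mouse 3 or control mouse 1 and lost without any other mouse, with adjusted p-values from 0.102 to 0.264.

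Cxcl10, which shares CXCR3 with Cxcl9, was at 37.1, 75.1, 53.8 and 29.4 CPM in control livers and at 21.2, 15.6, 33.8 and 16.7 CPM in Smo-KO livers. Smo-KO mouse 3 was again the highest of its group and lay above control mouse 4. The log2 fold change was -1.17 (SE 0.29, edgeR p = 0.00136, adjusted p = 0.146; exact permutation p = 0.0571), from a mean of 48.8 ± 20.2 to 21.8 ± 8.33 CPM (SD, n = 4 each). An exon of Art3 overlaps Cxcl10 on the opposite strand, and reads of the pair cannot be told apart without strand, but Art3 had only between 6 and 22 reads in any liver.

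Cxcl11, the third CXCR3 ligand, was less abundant, at 6.92, 10.2, 8.55 and 7.72 CPM in control livers and at 5.46, 4.14, 7.20 and 5.65 CPM in Smo-KO livers. Only Smo-KO mouse 3 reached the control range. These values are of RNA, and whether these mice make CXCL11 protein was not tested. The log2 fold change was -0.58 (SE 0.19, edgeR p = 0.00961, adjusted p = 0.234; exact permutation p = 0.0571).

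Cxcr3, the receptor, was at 2.27, 2.31, 2.09 and 3.46 CPM in control livers and at 1.13, 1.42, 1.46 and 1.17 CPM in Smo-KO livers. These levels rested on 20 to 35 reads per control liver and 11 to 13 per Smo-KO liver, so counting error is large for any single mouse. The groups did not overlap (log2 fold change -0.97, SE 0.26, edgeR adjusted p = 0.163; exact permutation p = 0.0286, the smallest possible). Summed over the 3 ligands and the receptor, the level was 134, 211, 238 and 211 CPM in control livers and 68.1, 53.6, 133 and 51.7 CPM in Smo-KO livers, 38.5% of the control mean. All 4 genes were lower at an unadjusted p under 0.05, against 7.15% of all genes tested, with a median log2 fold change of -1.07.

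**Figure D2:**
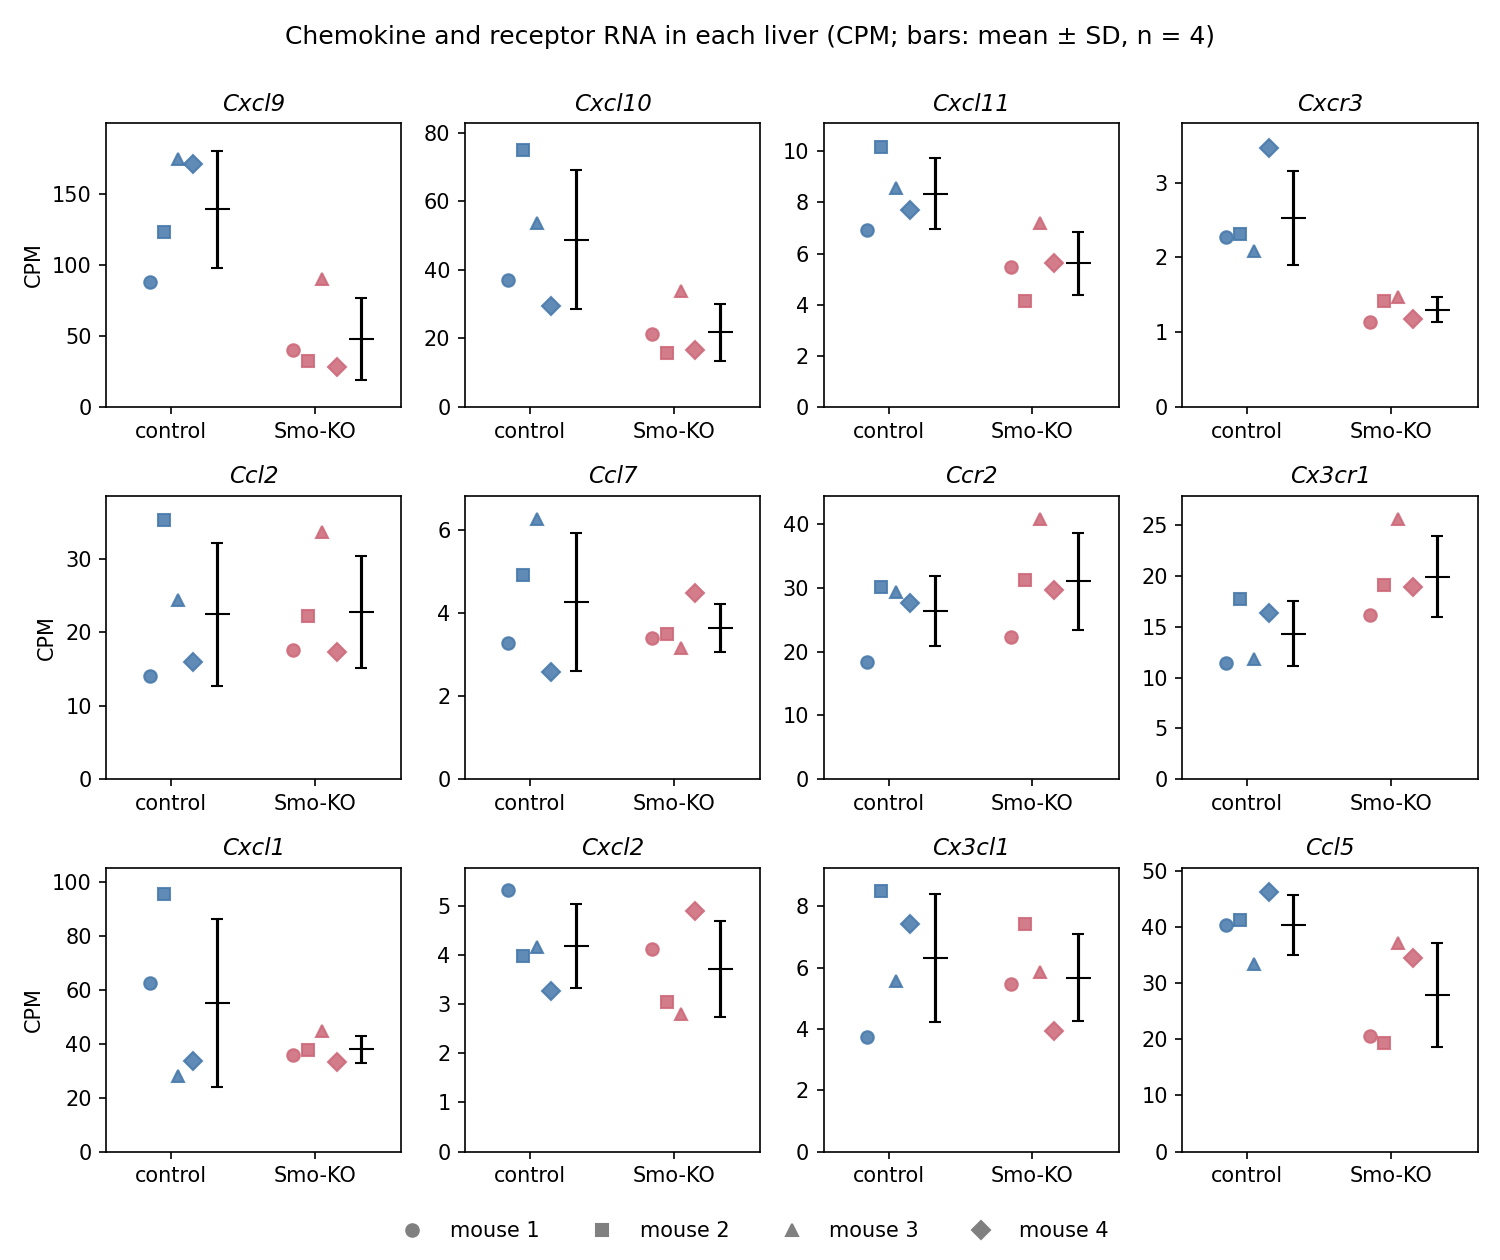
CPM (vertical axes, linear from 0) of 12 members in each of the 4 control and 4 Smo-KO livers; each symbol is 1 mouse and the black bars are mean ± SD. Smo-KO livers sit low for Cxcl9, Cxcl10, Cxcl11 and Cxcr3, with Smo-KO mouse 3 the highest of its group, and the groups overlap for Ccl2, Ccl7, Cx3cl1, Cxcl1 and Cxcl2.

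For every monocyte ligand tested the groups overlapped. Ccl2, the main ligand of CCR2, was at 14.1, 35.3, 24.4 and 15.9 CPM in control livers and at 17.6, 22.3, 33.7 and 17.4 CPM in Smo-KO livers, with almost the same range in both groups. Its log2 fold change was 0.01, with a 95% interval from -0.59 to 0.61 that leaves room for a moderate difference in either direction.

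Ccl7, a second CCR2 ligand, was at 3.29, 4.93, 6.26 and 2.57 CPM in control and 3.40, 3.49, 3.17 and 4.48 CPM in Smo-KO livers (log2 fold change -0.23, SE 0.27). Cx3cl1 encodes fractalkine, a membrane-bound ligand that holds CX3CR1-bearing monocytes, and it was at 3.74, 8.49, 5.56 and 7.42 CPM in control and 5.46, 7.42, 5.85 and 3.94 CPM in Smo-KO livers (log2 fold change -0.16, SE 0.25). The groups overlapped for both genes. Ccl8 and Ccl12, which were listed with the monocyte ligands, were not tested: Ccl8 had 9, 7, 14 and 19 reads in control and 4, 4, 9 and 4 in Smo-KO livers, and Ccl12 had 4, 6, 11 and 3 against 5, 3, 9 and 3. Of the 5 monocyte ligands, 3 were tested and 0 passed an unadjusted p of 0.05, against 13.8% of all genes tested. The median log2 fold change of the 3 was -0.16. Their summed level was 34.9 ± 12.2 CPM in control and 33.2 ± 8.46 CPM in Smo-KO livers (SD, n = 4 each).

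Both monocyte receptors had a positive fold change. Cx3cr1, the fractalkine receptor of patrolling monocytes and some macrophages, was at 11.5, 17.7, 11.8 and 16.3 CPM in control and 16.2, 19.1, 25.6 and 18.9 CPM in Smo-KO livers. Only Smo-KO mouse 1 lay within the control range (log2 fold change 0.47, SE 0.17, edgeR adjusted p = 0.266). Ccr2 was at 18.4, 30.2, 29.4 and 27.7 CPM in control and 22.4, 31.3, 40.9 and 29.7 CPM in Smo-KO livers, groups that overlapped (log2 fold change 0.23, SE 0.18, edgeR adjusted p = 0.612). Of 9 monocyte markers fixed as a list, which includes Ccr2, 1 was lower at an unadjusted p under 0.05 and 0 were higher, a share of 11.1% that is near the 13.8% of all genes tested. The list summed to 94.9% of the control level, most of it Fn1, the fibronectin gene that hepatocytes also express.

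Among neutrophil ligands, Cxcl1 was at 62.6, 95.6, 27.9 and 33.4 CPM in control livers and at 35.9, 37.6, 44.8 and 33.0 CPM in Smo-KO livers. Control mice 1 and 2 were high and control mice 3 and 4 lay below or near the lowest Smo-KO liver, and the groups overlapped (log2 fold change -0.54, SE 0.30, edgeR adjusted p = 0.455). The value rested mostly on control mouse 2: without it the log2 fold change was -0.12, and over all mice left out in turn it lay between -0.75 and -0.12. Cxcl2 was at 5.33, 3.98, 4.17 and 3.26 CPM in control and 4.12, 3.05, 2.80 and 4.90 CPM in Smo-KO livers, groups that overlapped (log2 fold change -0.16, SE 0.23).

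Cxcl3 had 6, 6, 8 and 5 reads in control and 3, 1, 4 and 2 in Smo-KO livers. Its groups did not overlap, but it had too few reads to be tested. Cxcl5 had 8, 15, 13 and 5 reads against 8, 7, 8 and 16, and Cxcl15 had none. Of the receptors, Cxcr2 had 8, 13, 13 and 7 reads in control and 8, 9, 1 and 4 in Smo-KO livers, and Cxcr1 had at most 2 in any liver. Neutrophil markers were also low: 4 of 12 were tested, 0 of these passed an unadjusted p of 0.05 against 13.8% of all genes tested, Ly6g had 0 reads, and the list summed to 25.0 ± 7.01 CPM in control and 27.0 ± 2.64 CPM in Smo-KO livers (SD, n = 4 each), with Csf3r the most abundant.

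To compare ligand groups without regard to scaling, log2 ratios of ligands were formed within each liver, a comparison chosen after the values had been seen. Cxcl9 over Ccl2 was 2.64, 1.80, 2.83 and 3.42 in control livers and 1.19, 0.54, 1.42 and 0.70 in Smo-KO livers, so every Smo-KO liver was below every control liver. The difference was -1.71 (SE 0.39, exact permutation test, two-sided p = 0.0286, adjusted p = 0.0571 over the 4 ratios formed). Cxcl10 over Ccl2 was 1.40, 1.09, 1.14 and 0.88 in control and 0.27, -0.51, 0.01 and -0.05 in Smo-KO livers, again without overlap (difference -1.20, SE 0.19, exact permutation p = 0.0286, adjusted p = 0.0571). Against Cxcl1 the groups overlapped: the difference was -1.28 for Cxcl9 (SE 0.67, exact permutation p = 0.114, adjusted p = 0.114) and -0.77 for Cxcl10 (SE 0.41, exact permutation p = 0.0571, adjusted p = 0.0762). No ratio passed 0.05 after adjustment, and since the ligands were picked for their values, the p-values add no independent support.

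Other inflammatory CC ligands were divided. Ccl5, made by T cells, NK cells and other cells, was at 40.4, 41.2, 33.4 and 46.3 CPM in control and 20.5, 19.4, 37.1 and 34.5 CPM in Smo-KO livers. Smo-KO mice 1 and 2 were low and mice 3 and 4 lay within the control range (log2 fold change -0.54, SE 0.19, edgeR adjusted p = 0.261). Ccl4, a ligand of activated macrophages and lymphocytes, was at 5.90, 9.12, 8.65 and 5.54 CPM against 5.88, 5.02, 6.10 and 3.52 CPM (log2 fold change -0.51, SE 0.22, edgeR adjusted p = 0.331).

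Ccl6, a CCR1 ligand of macrophages, pointed the other way, at 44.1, 56.0, 77.6 and 64.8 CPM in control and 82.5, 73.6, 85 and 69.5 CPM in Smo-KO livers, of which 2 lay within the control range (log2 fold change 0.36, SE 0.15, edgeR adjusted p = 0.308). For Ccl3, a relative of Ccl4, the log2 fold change was -0.37, and for Ccl9, another macrophage ligand of CCR1, it was 0.03. The receptor Ccr1 had a log2 fold change of -0.05, and its groups overlapped.

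Of 7 receptors of lymphocyte homing, 3 could be tested. All 3 were lower with groups that did not overlap, as were 4.34% of all genes tested, and their median log2 fold change was -0.63. Cxcr6, which holds memory T cells and NKT cells in the liver sinusoids, was at 3.18, 5.14, 4.97 and 5.44 CPM in control and 2.78, 2.73, 3.17 and 2.13 CPM in Smo-KO livers. The gap between control mouse 1 and Smo-KO mouse 3 was narrow (log2 fold change -0.80, SE 0.22, edgeR adjusted p = 0.172). Ccr7, which guides naive T cells and mature dendritic cells to lymph nodes, was at 2.84, 3.56, 2.58 and 2.97 CPM in control and 1.96, 1.96, 2.44 and 1.39 CPM in Smo-KO livers (log2 fold change -0.63, SE 0.23, edgeR adjusted p = 0.266). Cxcr4, the broadly expressed receptor of Cxcl12, was at 12.9, 14.5, 12.1 and 12.7 CPM against 10.8, 11.7, 9.88 and 11 CPM, a smaller difference (log2 fold change -0.27, SE 0.12, edgeR adjusted p = 0.347). Ccr9, the receptor of gut-homing T cells, also had groups that did not overlap, at 9, 21, 12 and 21 reads in control livers and 7 reads in each Smo-KO liver, but too few reads to be tested. Cxcr5, Ccr6 and Ccr10, which guide B cells and subsets of T cells, had at most 9 reads in any liver.

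Ligands of these and related receptors were tested for 6 of 14 homing ligands. All 6 had a positive fold change, with a median of 0.28, but with 1 mouse left out Ccl25 reached -0.095 and Cxcl13 -0.20 (without Smo-KO mouse 1). Cxcl14, an epithelial chemokine, was at 12.6, 18.5, 16.0 and 13.1 CPM in control and 18.6, 18.9, 24.5 and 22.4 CPM in Smo-KO livers, without overlap but with control mouse 2 close to the lowest Smo-KO livers (log2 fold change 0.49, SE 0.14, edgeR adjusted p = 0.194). It was the single homing ligand of 6 past an unadjusted p of 0.05, a share of 16.7% that is near the 13.8% of all genes tested. Cxcl16, the ligand of CXCR6, was at 43.9 ± 9.0 CPM in control and 53.0 ± 9.45 CPM in Smo-KO livers, and Cxcl12, the ligand of CXCR4, at 314 ± 22.9 and 327 ± 16.0 CPM (SD, n = 4 each). The groups overlapped for both ligands. Ccl27a, Ccl25 and Cxcl13 had log2 fold changes of 0.28, 0.08 and 0.33, the last with an SE of 0.46 at about 1 CPM.

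Of the chemokines of type 2 responses, Ccl22, a CCR4 ligand made by dendritic cells and macrophages, was at 3.18, 4.51, 3.38 and 3.36 CPM in control and 2.58, 2.51, 2.56 and 1.17 CPM in Smo-KO livers, without overlap (log2 fold change -0.71, SE 0.26, edgeR adjusted p = 0.260). Ccl24, a ligand of the eosinophil receptor CCR3, was at 3.40, 1.78, 4.57 and 2.67 CPM against 2.78, 1.42, 1.46 and 1.81 CPM (log2 fold change -0.72, SE 0.32, edgeR adjusted p = 0.339). Ccr3 itself had a log2 fold change of 0.12. Ccl1, Ccl11, Ccl17, Ccr4 and Ccr8 had at most 5 reads in any liver. Xcl1, a ligand from T and NK cells for cross-presenting dendritic cells, had 2, 6, 8 and 11 reads in control and 2, 2, 4 and 1 in Smo-KO livers. The 4 atypical receptors Ackr1, Ackr2, Ackr3 and Ackr4 had log2 fold changes of -0.38, -0.09, -0.30 and 0.09. An unadjusted p of 0.05 was passed by 0 of these 4, against 13.8% of all genes tested. Exons of Ackr1, Ackr4, Ccl25, Ccl27a, Ccr9, Cx3cr1, Cxcl11, Cxcl16, Cxcr5 and Xcl1 also overlap another gene, so their counts carry that uncertainty. The remaining untested members, Ccl20, Ccl28, Cxcl17 and the receptor-like Ccr1l1, had at most 8 reads in any liver.

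To compare levels between genes, CPM were divided by the length of the gene's longest transcript. In control livers the order began with Ccl5 at 60.4 ± 7.94 CPM per kb, Ccl9 at 59.0 ± 5.39, Cxcl12 at 55.7 ± 4.07, Cxcl9 at 48.1 ± 14.3 and Ccl6 at 42.1 ± 9.82 CPM per kb (SD, n = 4). Neighbours among these 5 differed by less than the larger of their SDs. Cxcl1 at 29.3 ± 16.6, Cxcl10 at 21.9 ± 9.08 and Ccl2 at 20.5 ± 8.86 CPM per kb came next. In Smo-KO livers Cxcl9 was at 16.5 ± 9.96 CPM per kb and moved from rank 4 to rank 8, and Cxcl10, at 9.79 ± 3.73 CPM per kb, from rank 7 to rank 10. Cxcl11, at 2.20 CPM per kb in control livers, and Cxcr3, at 1.46 CPM per kb, lay far below both. As a share of the summed CPM of all ligands, Cxcl9 was 14.1% ± 3.69 in control and 5.32% ± 2.53 in Smo-KO livers, and Cxcl10 was 4.96% ± 1.82 and 2.47% ± 0.655 (SD, n = 4 each).

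**Figure D3:**
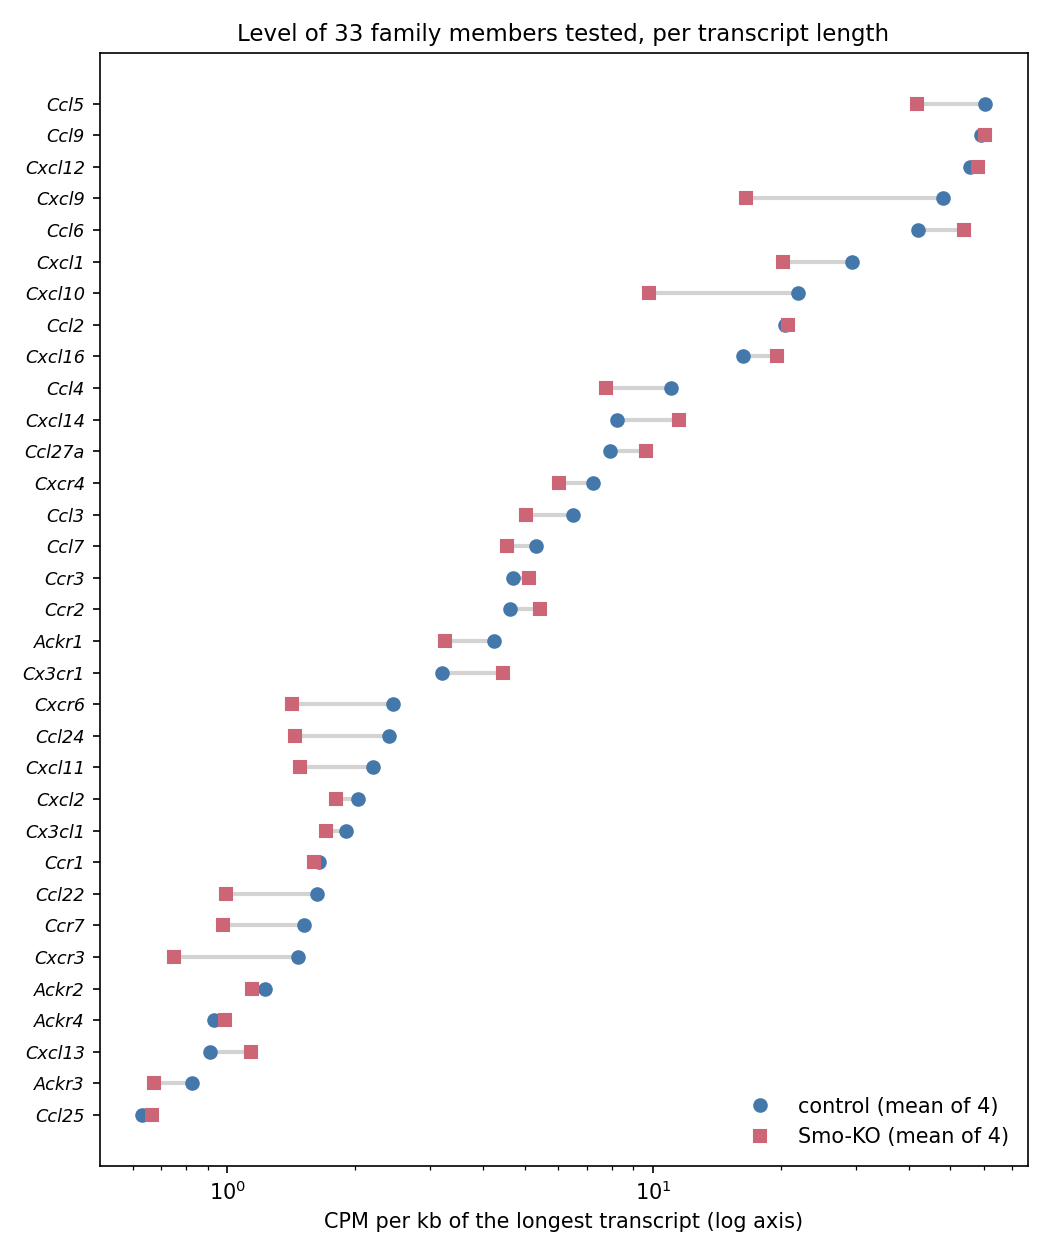
Mean CPM per kb of the longest transcript (horizontal log axis) of 33 tested members in control livers (circles) and Smo-KO livers (squares), ordered by the control level; grey lines join the means. Cxcl9 and Cxcl10 are the abundant ligands with the longest lines, and Ccl9, Cxcl12 and Ccl2 have nearly the same level in both groups.

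Genes of interferon gamma signaling, which induces the CXCR3 ligands, were followed as a list. Of 22 genes, 17 were tested: 5 were lower at an unadjusted p under 0.05, 0 were higher, and the median log2 fold change was -0.12. Of all genes tested, 7.15% were lower and 13.8% passed in either direction. Among the lower genes were Socs1, a feedback inhibitor of the pathway (log2 fold change -1.27), Ciita, the master regulator of MHC class II genes (-0.89), Cd274, which encodes PD-L1 (-0.67), and Irf1, a transcription factor that interferon gamma induces (-0.49). Groups did not overlap for Ciita, Cd274 and Irf1, which are 17.6% of the tested list, against 7.37% of all genes tested. Ifng itself had 1, 0, 6 and 5 reads in control and 0, 0, 4 and 2 reads in Smo-KO livers, too few for a comparison.

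Genes of NF-kB signaling, which induces Cxcl1, Cxcl2 and Ccl2 among other ligands, were followed in the same way. Of 19 tested, 1 was lower at an unadjusted p under 0.05, Nfkb1 (log2 fold change -0.24), which encodes an NF-kB subunit, and 1 was higher, Nfkbiz (0.39), which encodes a nuclear partner of NF-kB, with a median of -0.10. These 2 are 10.5% of the list, below the 13.8% of all genes tested. Whether the lists differ from each other was not tested. Of 29 genes tested that carry the signal of chemokine receptors inside the cell, Tiam1, an activator of Rac, was lower (-0.62) and Rgs1, which shortens G protein signaling, was higher (0.37), with a median of -0.03, and these 2 are 6.9% of that list, also below 13.8%. Of 12 related genes whose names fall outside the family's pattern, such as Pf4, Mif and Cmklr1, 11 were tested and 0 passed.

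**Figure D4:**
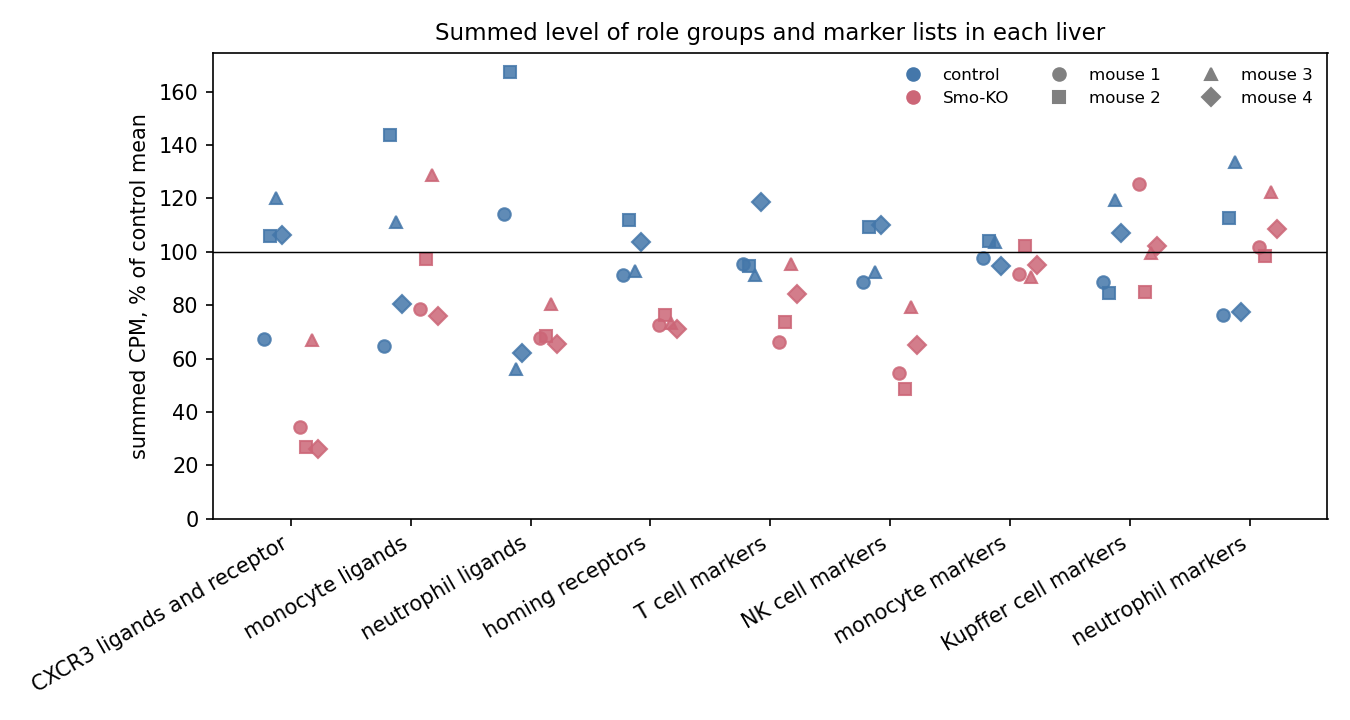
Summed CPM of 4 role groups and 5 cell type marker lists in each liver, as percent of the mean of the 4 control livers (vertical axis, linear from 0; the line marks 100); each symbol is 1 mouse. The sums of the CXCR3 genes, homing receptors and NK cell markers are low in Smo-KO livers, and those of monocyte, Kupffer cell and neutrophil markers overlap between the groups.

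Many, but not all, markers of the lymphocytes that carry CXCR3 and CXCR6 were lower in Smo-KO livers at an unadjusted p under 0.05. Of 12 T cell markers in the counts, 9 were lower at an unadjusted p under 0.05 and 1, Themis, was higher, with a median log2 fold change of -0.80. Of all genes tested, 7.15% were lower and 6.7% higher. Examples are Cd247 (-1.32) and Cd3e (-0.98), chains of the T cell receptor complex, and Cd8a (-0.77), the coreceptor of cytotoxic T cells. Themis, a signaling protein of T cell development and the most abundant marker of the list, was at 11.2 ± 1.68 CPM in control and 21.8 ± 4.78 CPM in Smo-KO livers (SD, n = 4 each; log2 fold change 0.96). The summed T cell markers were 64.2, 63.6, 61.5 and 79.9 CPM in control and 44.5, 49.6, 64.3 and 56.6 CPM in Smo-KO livers. These sums include Themis, which was higher in Smo-KO livers while most other markers were lower, and they overlapped between the groups. No marker was at 0 reads.

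NK cell markers summed to 29.1, 36.0, 30.4 and 36.2 CPM in control and 17.9, 16.0, 26.1 and 21.4 CPM in Smo-KO livers, without overlap. Of 10 listed, 6 were tested and 3 were lower, against 7.15% of all genes tested: Nkg7 (log2 fold change -0.94), the most abundant, which encodes a granule protein, Eomes (-0.83), a transcription factor of NK and memory T cells, and Prf1 (-0.69), which encodes perforin. The part of these cells in the lower Cxcr3, Cxcr6 and Ccl5 was not tested.

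Few markers of the other cell types passed the threshold. Kupffer cell markers summed to 103% of the control level, with 0 of 10 past an unadjusted p of 0.05 and Cd5l the most abundant. B cell and dendritic cell markers summed to 101% each, with Cd79b and Clec9a the most abundant, and 0 of 5 and 0 of 7 tested passed. Endothelial markers summed to 83.2%, with Clec4g the most abundant. All 8 had a negative log2 fold change (median -0.26), and 1 of 8 passed the threshold (Pecam1, -0.50). Stellate cell markers summed to 99.2%, with 1 of 8 past the threshold and lower (Col1a1, -0.37) and Dcn the most abundant. Hepatocyte markers summed to 98.1%, with 1 of 8 past the threshold and lower (Cps1, -0.33). Cholangiocyte markers summed to 119%, most of it Spp1, which macrophages also express, with 0 of 5 past the threshold. Over all genes tested, 13.8% passed it.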

How the data were processed

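Deposited data were 8 lists of whole-number counts per gene symbol, 1 per liver, which the authors had not normalized. Total RNA was made into libraries with the NEB Next Ultra RNA kit and sequenced on an Illumina NovaSeq. The submitters' processing notes name fastp, STAR 2.7.5, featureCounts 2.0.1 and GRCm38. The lists end with entries in the form that htseq-count writes. Which counter made them, the annotation and the strand setting are not given in the sources used here. Reads on no gene (7.56% to 9.68%) or on more than 1 gene (2.45% to 2.61%) were left out. The percentages are of these reads and the reads assigned to genes together. Reads of any other class, such as those that align to several places, are not part of them.

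Counts were analysed in R 4.3.3 with edgeR 4.0.16 (filterByExpr, which corresponds to about 1.06 CPM here; TMM; glmQLFit and glmQLFTest with genotype as the single term; p-values of 12977 genes adjusted by Benjamini-Hochberg). DESeq2 1.42.0 was the alternative test. Single values were compared by exact permutation tests over the 70 assignments of mice, two-sided. Lengths came from GENCODE M21 (61 of 62 members), and positions and promoters from RefSeq. Python 3.11.15, pandas 2.3.3, numpy 2.4.6 and matplotlib 3.10.9 were used for summaries and figures. The code was tested on simulated counts. No library copied another: within groups the chi-square of counts divided by its degrees of freedom was at least 8.17, against about 1 for sampling noise. Molecules were not marked, so depth describes counting error only.

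The members, the role groups, and the lists of pathway genes and cell markers were chosen with earlier results of these data known, so their direction is not independent evidence. Values in all 8 livers are given for Smo, for the CXCR3 genes, for tested monocyte and neutrophil ligands and receptors, and for other members with an unadjusted p under 0.05 or groups that do not overlap. Reads of further untested members were chosen after values were seen. Of each list, up to 5 genes with the smallest p and the most abundant marker could be named. Trac, Trbc1, Trbc2 and Ighm were not analysed here. For 1 tested member and 2 listed genes no values are reported here, though the counts include them. Alternatives were other size factors, DESeq2, other filters, a replicate block, a stricter threshold, raw library totals, union exon lengths and each mouse left out. DESeq2 with each mouse left out and the ratios of ligands were added after the data were seen.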

Additional observations from a re-analysis of the deposited data

Results flagged for a closer look

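In groups of 4 livers, a single liver can stand far from the others. Over the 34 tested members, 68 groups were examined, and in 4 the gap between the highest or lowest liver and the next exceeded Dixon's 95% critical value; chance alone gives about 3.4. Cxcr3 was at 3.46 CPM in control mouse 4 and between 2.09 and 2.31 CPM in the other control livers. Ccl22 was at 4.51 CPM in control mouse 2, with the others between 3.18 and 3.38, and at 1.17 CPM in Smo-KO mouse 4, with the others between 2.51 and 2.58. Ackr4 was at 4.16 CPM in Smo-KO mouse 4 and between 2.07 and 2.29 CPM in the other Smo-KO livers.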

How the results depend on the processing

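Directions of Cxcl9, Cxcl10, Cxcl11 and Cxcr3 were negative under every alternative run. edgeR called 0 of all genes at an adjusted p under 0.05 (1797 at an unadjusted p under 0.05), DESeq2 167, edgeR without a filter 61, and edgeR without 1 mouse between 0 and 78 (78 without Smo-KO mouse 1). Of the members it called 0 (14 unadjusted), DESeq2 1 (Cxcl9, -1.54, adjusted p = 0.0458), edgeR without a filter 2 (Cxcl9, -1.55, adjusted p = 0.0203, and Cxcl10, -1.17, adjusted p = 0.0442), and edgeR without 1 mouse between 0 and 1 (Cxcl9 without Smo-KO mouse 3). Leaving out 1 mouse at a time gave -2.05 to -1.36 for Cxcl9 (adjusted p 0.0111 to 0.251), -1.45 to -0.88 for Cxcl10 (0.109 to 0.291), -0.71 to -0.46 for Cxcl11 (0.187 to 0.419) and -1.05 to -0.77 for Cxcr3 (0.152 to 0.315). In DESeq2, Cxcl9 had -2.04 (adjusted p 2.72e-18) without Smo-KO mouse 3 and -1.70 (0.0290) without control mouse 1. Without any other mouse its DESeq2 adjusted p lay between 0.102 and 0.264. For the mice that gave 2.72e-18, edgeR gave 0.0111, so the size of DESeq2's value is not taken as strength of evidence. Cxcl10 had -1.44 (DESeq2 adjusted p 0.0205) without Smo-KO mouse 3. Members higher at an unadjusted p under 0.05 numbered between 1 and 4 without 1 mouse (1 without control mouse 1 or Smo-KO mouse 3), those lower between 8 and 11, and those without overlap between 6 and 9 (9 without Smo-KO mouse 3). A threshold of 0.01 left 6 members. Of the lists, DESeq2 put 5 of 17 interferon gamma genes, 4 of 12 T cell markers and 1 of 6 NK cell markers under an adjusted p of 0.05. The share of all genes was 1.29%, and edgeR called none of these list genes after adjustment. The causes were not tested.

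Of 452 pairs of an alternative and 1 of 33 tested members, 424 kept direction and side of the threshold, 7 passed it newly and 21, all without 1 mouse, turned direction. These concerned 10 members, none past a threshold: over the mice left out, log2 fold changes were -0.44 to 0.064 for Ackr2, -0.21 to 0.19 for Ackr4, -0.24 to 0.32 for Ccl2, -0.095 to 0.25 for Ccl25, -0.41 to 0.025 for Ccl7, -0.040 to 0.090 for Ccl9, -0.17 to 0.13 for Ccr1, -0.025 to 0.23 for Ccr3, -0.34 to 0.018 for Cx3cl1 and -0.20 to 0.66 for Cxcl13. Scaling moved the median of all genes by at most 0.0062. Scaled to raw library totals, the summed CXCR3 genes, monocyte ligands and neutrophil ligands were at 38.3%, 94.2% and 70.4% of control. With union exon lengths the order of members by level had a Spearman rho of 0.988 with the order printed, across genes.

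Replicate numbers were not taken to pair the mice: no source says what they mark, and deviations of same-numbered mice correlated at 0.104, 0.187, 0.0611 and 0.113 across genes, not all over 0.1. Control mice 2, 3 and 4 correlated best with the Smo-KO mouse of their own number, and control mouse 1 with Smo-KO mouse 4 (0.157). With the number as a replicate block, edgeR called 8 of all genes and 0 members, 5 members were higher at an unadjusted p under 0.05, and the log2 fold changes were -1.63 for Cxcl9 (adjusted p = 0.0607) and -1.13 for Cxcl10 (adjusted p = 0.0850).

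Depth limits what can be said of Cxcr3, of the neutrophil ligands Cxcl3 and Cxcl5, of Cxcr2 and of the other members with few reads. An exact test on 4 against 4 mice cannot go below 0.0286, and no p here carries a correction for having chosen the family with results known.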
